A study of Homo sapiens with 10 samples.

Results

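Receptor tyrosine kinases other than the Eph receptors were followed in RNA from the near-haploid human cell line HAP1 with and without RBM4, a gene for an RNA-binding protein. The set was a list of 37 gene symbols, matched to the gene rows of the deposited table of paired-end counts, and all 37 had a row among the 58051 genes. Of these, 27 passed the filter on low counts and were among the 20747 features (genes and repeat subfamilies) tested. The other 10 had too few reads to test and are given by their raw counts. Membership did not depend on any measured value, although the list was drawn up with earlier results of these data known.

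HAP1 is derived from the leukaemia line KBM-7. Wild type cells (n = 3 paired-end libraries) were compared with RBM4 knockout clone 1, named 1B2 (n = 3), and RBM4 knockout clone 2, named 1B6 (n = 2). A further pair of single-end libraries held 1 wild type sample and 1 RBM4 knockout sample whose clone the labels do not name. Every culture had IMDM medium with 10% fetal calf serum and antibiotics, no group was given a further agent, and each library was made from 65 ng of total RNA. Each knockout group is a single clone, so what is particular to a clone and what comes from the loss of RBM4 cannot be told apart within it. The labels do not say that replicates were separate cultures. A p-value here therefore reflects the scatter among these samples, which could be technical.

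Receptor tyrosine kinases are single-pass membrane proteins with a ligand-binding part outside the cell and a kinase inside it. Ligand binding brings receptor chains together, the kinases phosphorylate each other, and adaptors such as GRB2 and SHC1 then dock and pass the signal to the RAS-ERK and PI3K-AKT pathways. PDGFRA, KIT, FLT3, CSF1R and PDGFRB form class III; KIT and FLT3 are known from blood progenitor cells, and PDGFRA from mesenchymal and early embryonic cells. The list also holds the FGF, EGF, insulin, VEGF, neurotrophin and angiopoietin receptors, the MET, TAM, RET and DDR families, and the WNT-binding receptors ROR1, ROR2, PTK7 and RYK.

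Library totals lay between 33192095 and 55617525 counts, or 41265510 and 44140706 in the single-end pair. The first principal component (38.4% of the variance) had the 3 wild type libraries on one side and the 5 knockout libraries on the other. The rank correlation across genes between a library's level and GC content was -0.414 to -0.249 in the wild type libraries and -0.0496 to 0.392 in the knockout libraries, so GC moved with genotype. Where a GC correction (a smooth trend on GC content removed per library) changed the call of a receptor in a clone, this is given with the gene. The sample numbers in the column names run from 1 to 5 (wild type and the first replicate of each clone) and from 11 to 13 (the other knockout libraries), and changes of call with numbers 1 to 5 alone are given in the same way. RBM4 (ENSG00000173933, chr11:66638617-66668374), the targeted gene, stood at 79.9, 79.8 and 78.7 CPM (counts scaled to a common library size) across wild type, 22.3, 22.9 and 24.5 across clone 1, and 25.3 and 25.8 across clone 2. Its RNA was thus 3.42-fold lower in clone 1 and 3.11-fold lower in clone 2, in edgeR's quasi-likelihood test with Benjamini-Hochberg adjustment (adjusted p = 4.43e-10 and 1.37e-09). In the single-end pair RBM4 stood at 83.3 CPM in wild type and 25.7 in the knockout.

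FGFR1 and FGFR2, receptors for fibroblast growth factors, had the highest RNA levels of the 37 receptors per kilobase of exon. In wild type FGFR1 stood at 18.04 ± 0.0572 CPM per kb (SD, n = 3), which was 18.1% of the summed receptor level and the 86th percentile of the tested genes. FGFR2 followed at 14.8 ± 0.718, and PTK7, a kinase-inactive receptor of WNT signalling, at 8.73 ± 0.394. These 3 ranks did not overlap between libraries. From rank 4 on, RYK (7.22) and FGFR3 (6.85) overlapped, as did INSR (5.78), FGFR4 (5.64), MET (5.51), IGF1R (4.78) and TYRO3 (4.56), each with the next. DDR1 (3.90), FLT4 (2.49), KIT (2.29), MERTK (2.23), ROR2 (1.41), LTK (1.29) and RET (1.04) came next, followed by ERBB3 (0.892), FLT1 (0.764) and ERBB2 (0.685). Among these, FLT4 overlapped KIT, KIT overlapped MERTK, ROR2 overlapped LTK and FLT1 overlapped ERBB2. A gap separated these 20 genes from FLT3 (0.164), ERBB4 (0.129), DDR2 (0.118), PDGFRA (0.0966), MST1R (0.0847), AXL (0.0720) and ROR1 (0.0341). In this low group FLT3, ERBB4 and DDR2 overlapped in turn, as did PDGFRA, MST1R and AXL.

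**Figure D1:**
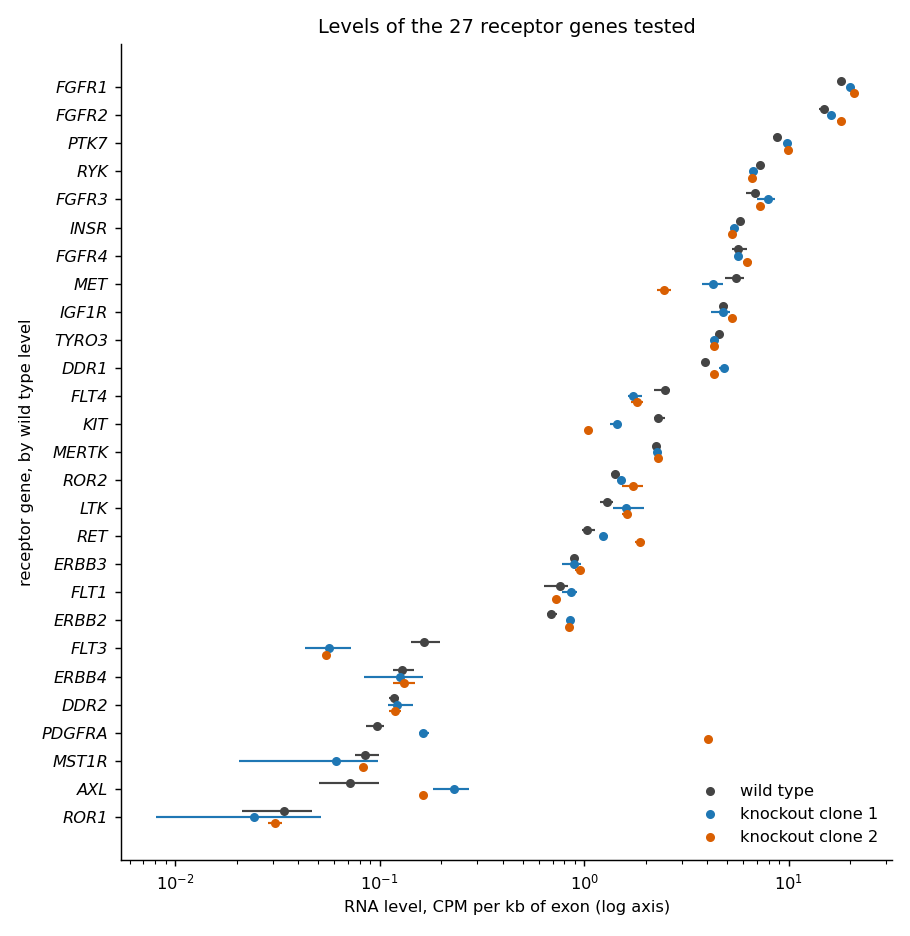
RNA level of the 27 tested receptor genes in CPM per kb of exon on a log axis, ordered by the wild type level; points are group means and lines run from the lowest to the highest library of a group (wild type n = 3, clone 1 n = 3, clone 2 n = 2). PDGFRA stands at 0.0966 in wild type and at 4.02 in clone 2, the largest move in rank of the receptors shown.

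Summed over the 37 genes, the receptor level was 98.1 to 103 CPM per kb in wild type, 99.6 to 105.6 in clone 1 and 107.2 to 109 in clone 2. Clone 2 thus lay above the other groups. PDGFRA alone was at 0.0966 CPM per kb in wild type, 0.163 in clone 1 and 4.02 in clone 2. The sum without PDGFRA was not computed. PDGFRA was the member that changed rank most: it was 24th in wild type, 22nd in clone 1 and 11th in clone 2, where it made up 3.72% of the receptor total. MET went from 8th to 11th and 12th, and KIT from 13th to 16th and 18th. Among the low receptors, FLT3 went from 21st to 26th in each clone, and AXL from 26th to 21st and 22nd.

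The 10 receptors below the filter included EGFR itself, both neurotrophin receptors on the list and both TIE receptors. PDGFRB had 36 reads over the 8 libraries, NTRK3 had 23, KDR, the main VEGF receptor of endothelium, had 15, and CSF1R, the macrophage growth factor receptor, had 13. TIE1 had 7 reads, ALK and TEK had 6 each, EGFR had 2 and NTRK2 had 1. ROS1 had no read in any library, which allows a level of up to 0.00896 CPM over the 8 libraries together (3 counts, counting error only). The most that any of these genes reached in a single library was 10 reads.

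In clone 1, 9 of the 27 tested receptors passed an adjusted p of 0.05 (33.3%), beside 16% of all tested features (9.37% higher and 6.64% lower). PDGFRA, ERBB2, AXL, DDR1 and PTK7 rose and KIT, FLT3, MET and FLT4 fell. Clone 2 also gave 9 of 27, beside 10.8% of all features (6.18% higher and 4.59% lower): PDGFRA, FGFR1, FGFR2, AXL and RET rose, and KIT, FLT3, MET and FLT4 fell. PDGFRA and AXL were called higher, and KIT, FLT3, MET and FLT4 lower, in each clone, a rule that 7.51% of all features met, 4.42% upward and 3.09% downward. Both contrasts use the same 3 wild type libraries, so these calls are not independent. In the mean of the clones 12 receptors were called, 8 higher and 4 lower (44.4%, beside 18% of all features, 9.87% higher and 8.09% lower), and 15 were called in no contrast. After a GC correction the mean gave 5 higher and 6 lower, with INSR and TYRO3 added to the lower calls (adjusted p = 0.0378 and 0.0172), and clone 1 gave 2 higher and 4 lower. The median log2 fold change of the tested receptors was 0.02 in clone 1, 0.08 in clone 2 and 0.05 in the mean, beside medians of all features of -0.0018, 0.010 and 0.0020. Whether receptors were called more often than other genes of like level was not tested.

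**Figure D2:**
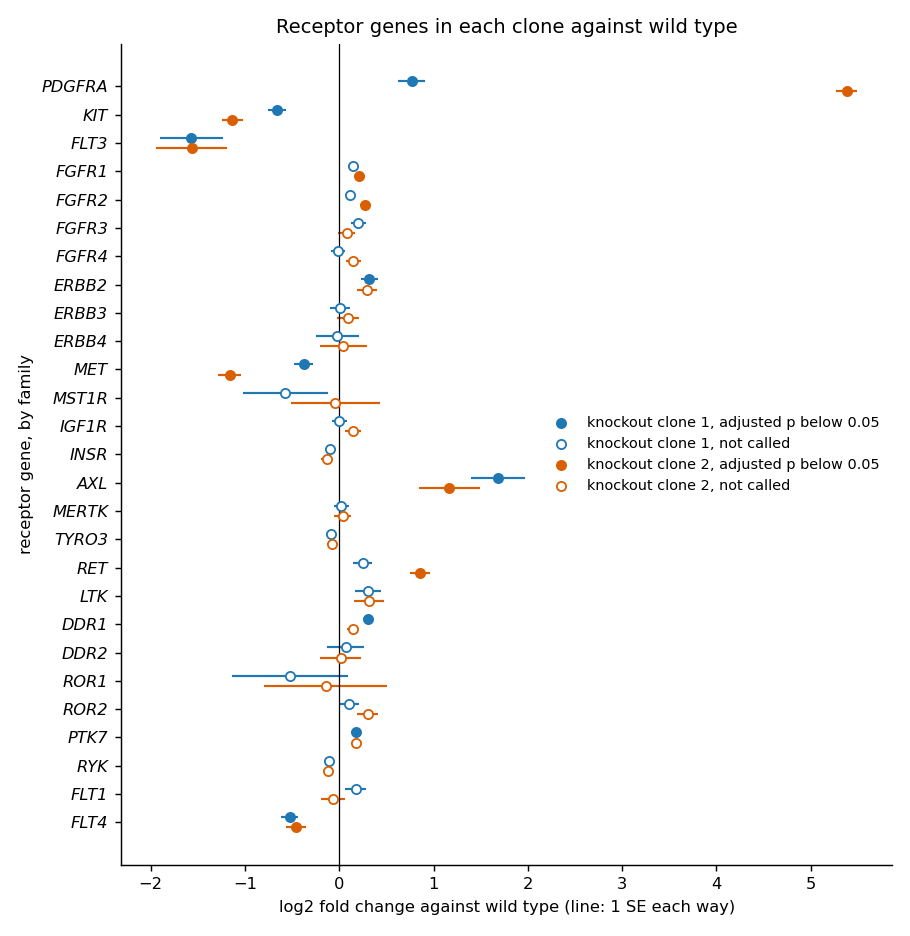
Log2 fold change against wild type of the 27 tested receptor genes in clone 1 and clone 2, with lines of 1 SE each way and filled points for an adjusted p below 0.05 (edgeR). PDGFRA in clone 2, at 5.38, lies far to the right of every other point, KIT, FLT3, MET and FLT4 lie left of 0 in each clone, and most receptors sit near 0.

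Between the clones, 4 of 27 receptors were called (14.8%, beside 2.09% of all features, 1.1% higher and 0.993% lower in clone 2). PDGFRA and RET were higher in clone 2, and KIT and MET were lower. The sequences before the annotated starts of these 4 genes are shown because they are the receptors whose level separated the clones. They are RefSeq sequences (GRCh38.p14), taken from the 250 bases before the RefSeq start. For PDGFRA, KIT and RET the GENCODE 29 gene begins before that start and the stretch ends there, which leaves 54, 211 and 208 bases. For MET all 250 bases are shown, and the GENCODE 29 gene begins further downstream. Capitals mark matches to the GC box on either strand.
PDGFRA, chr4:54229043-54229096, plus strand: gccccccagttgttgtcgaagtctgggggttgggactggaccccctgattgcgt
KIT, chr4:54657707-54657917, plus strand: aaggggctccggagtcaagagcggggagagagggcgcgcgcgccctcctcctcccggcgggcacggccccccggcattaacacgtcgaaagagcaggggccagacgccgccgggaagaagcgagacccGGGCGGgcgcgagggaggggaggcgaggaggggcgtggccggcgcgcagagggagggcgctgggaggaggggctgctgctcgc
MET, chr7:116671946-116672195, plus strand: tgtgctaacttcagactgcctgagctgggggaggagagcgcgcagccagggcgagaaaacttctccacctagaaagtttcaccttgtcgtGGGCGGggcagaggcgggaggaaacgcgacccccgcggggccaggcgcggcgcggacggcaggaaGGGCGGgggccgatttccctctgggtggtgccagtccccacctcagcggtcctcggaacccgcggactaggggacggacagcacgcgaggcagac
RET, chr10:43076819-43077026, plus strand: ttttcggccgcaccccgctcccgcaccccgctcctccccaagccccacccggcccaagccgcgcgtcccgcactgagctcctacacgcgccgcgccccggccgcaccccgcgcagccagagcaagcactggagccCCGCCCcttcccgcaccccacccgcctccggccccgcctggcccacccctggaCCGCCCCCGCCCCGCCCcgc

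The motifs searched on both strands were the GC box (GGGCGG), the CCAAT box (CCAAT), the TATA box (TATAAA), an AP-1 element (TGACTCA) and an E-box (CACGTG); matches could overlap. The printed stretches hold 0 GC boxes for PDGFRA, 1 for KIT, 2 for MET and 4 for RET, and no match to the other motifs. In the full windows of 250 bases, a GC box was present in 42.3% of 27303 RefSeq windows, a CCAAT box in 33.0%, a TATA box in 11.1%, an E-box in 6.49% and the AP-1 element in 4.16%. The PDGFRA window was 46.8% GC with 8 CpG dinucleotides, below the median of 58.0% and 11 over all windows. KIT (76.4%, 34 CpG), MET (68.4%, 24 CpG) and RET (79.6%, 33 CpG) lay above both medians. Windows were matched for 34 of the 37 receptors. The 24 of these that were tested had a median GC of 72.0% and 24.5 CpG, while the 10 receptors below the filter had 63.0% and 8. These are descriptions of letters and say nothing of what binds there.

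PDGFRA, the receptor for PDGF-AA and PDGF-CC, showed the largest difference of any receptor tested here. The gene (ENSG00000134853) lies on the plus strand at chr4:54229097-54298247. Its level was 0.831, 0.970 and 1.02 CPM across wild type, 1.51, 1.70 and 1.56 across clone 1, and 37.9 and 40.4 across clone 2. Each clone 1 library lay above every wild type library, and both clone 2 libraries lay far above all others. Among all features, 35% had no overlap between clone 1 and wild type libraries, 45% none between clone 2 and wild type, and 25.3% none between all knockout libraries and wild type, so a lack of overlap is common. The wild type values rest on 34 to 42 reads and those of clone 2 on 1532 and 1900. In a bulk sample, more cells with the RNA and more RNA per cell cannot be told apart. Log2 fold changes were 0.77 (SE 0.139, adjusted p = 0.00236) in clone 1 and 5.38 (SE 0.115, adjusted p = 8.23e-12) in clone 2, or 1.70-fold and 41.6-fold. Clone 2 exceeded clone 1 by 4.61 (SE 0.107, adjusted p = 1.14e-11). With sample numbers 1 to 5 alone, which keeps 1 library per clone, the clone 1 call was lost (0.69, adjusted p = 0.0585). The single-end pair gave 1.07 CPM in wild type and 29.6 in the knockout, a log2 ratio of 4.74.

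The annotation places another gene across PDGFRA. ENSG00000282278 (chr4:53377839-54295272, plus strand) begins within FIP1L1 and shares 1533 exon bases with PDGFRA, 15.8% of the exon length of PDGFRA, so reads in that stretch cannot be assigned to either from the table. It stood at 14.2, 15.1 and 13.8 CPM across wild type, 13.7, 14.6 and 15.4 across clone 1, and 18.9 and 20.3 across clone 2. Both clone 2 libraries were above all others, with a log2 fold change of 0.45 (SE 0.0853, adjusted p = 0.00391). FIP1L1 itself did not pass the test in either clone (-0.05 and -0.07).

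Genes next to PDGFRA were examined within 2 Mb, as a set defined by position; they were chosen after the PDGFRA values were seen. CHIC2, whose nearest end is 164 kb before PDGFRA, rose in clone 2 (0.64, SE 0.1001, adjusted p = 0.000881), from 10.1 to 10.96 CPM in wild type to 15.5 and 17.2, and was not called in clone 1 (0.27, adjusted p = 0.0623). GSX2, a homeobox gene 127 kb before PDGFRA, had 0, 0.0571 and 0 CPM in wild type, 0.0740 to 0.121 in clone 1, and 0.272 and 0.383 in clone 2. GSX2 was called in clone 2 (adjusted p = 0.00578), a call lost without clone 2 replicate 2 and with sample numbers 1 to 5 alone. It was not called in clone 1 (adjusted p = 0.111), except without wild type replicate 2 (adjusted p = 0.0490). Wild type was below the limit that a count of 0 allows, so no fold is given. SRD5A3, 1048 kb after PDGFRA, fell in each clone (-0.41 and -0.60, adjusted p = 0.00608 and 0.00113). RASL11B, 1362 kb before PDGFRA, was called lower in the mean of the clones alone (-1.15, adjusted p = 0.0247). Other tested genes of the window, such as USP46, SCFD2, TMEM165, CLOCK, NMU and EXOC1, passed the test in no contrast.

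**Figure D3:**
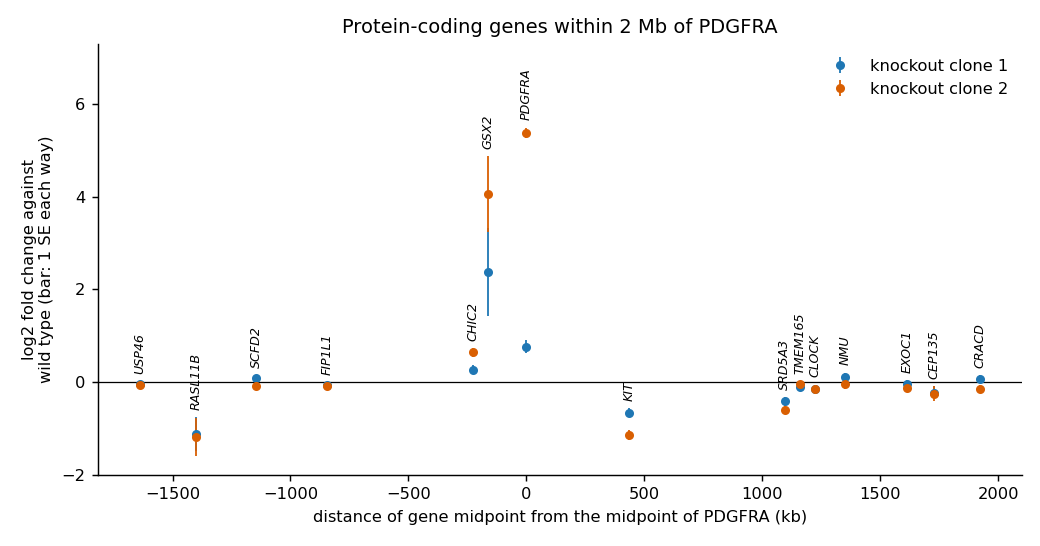
Log2 fold change against wild type of the tested protein-coding genes with a symbol around PDGFRA, by the distance of gene midpoints in kb, with bars of 1 SE each way. In clone 2 PDGFRA (5.38) stands above genes on both sides, CHIC2 is at 0.64, KIT is at -1.13 and most others lie near 0; GSX2 rests on very few reads.

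KIT, the stem cell factor receptor, is the next tested protein-coding gene after PDGFRA and lies 360 kb from it at chr4:54657918-54740715. It moved the other way. KIT stood at 12.2, 12.2 and 13.8 CPM across wild type, 8.40, 8.30 and 7.45 across clone 1, and 5.79 and 5.80 across clone 2. The groups did not overlap, with wild type highest and clone 2 lowest. Its change on the log2 scale was -0.66 (SE 0.0930, adjusted p = 0.000383) in clone 1 and -1.13 (SE 0.109, adjusted p = 1.18e-05) in clone 2. Clone 2 was lower than clone 1 by a log2 difference of -0.47 (adjusted p = 0.0387); this call held in 9 of 17 alternatives and was lost, among others, when either clone 2 replicate, clone 1 replicate 1 or 2, or wild type replicate 1 or 2 was left out (adjusted p up to 0.265), or with sample numbers 1 to 5 alone (0.174).

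FLT3, a receptor of blood progenitors, was low in all libraries and fell in each clone. Its levels were 0.594, 0.628 and 0.824 CPM across wild type, 0.302, 0.181 and 0.222 across clone 1, and 0.223 and 0.234 across clone 2. No knockout library reached the lowest wild type library. The log2 fold change was -1.57 in clone 1 (SE 0.334, adjusted p = 0.00648) and -1.57 in clone 2 (SE 0.378, adjusted p = 0.0166). Each call was lost with sample numbers 1 to 5 alone (adjusted p = 0.138 in clone 1 and 0.0509 in clone 2), and that in clone 2 also without wild type replicate 3 or either clone 2 replicate (up to 0.125).

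**Figure D4:**
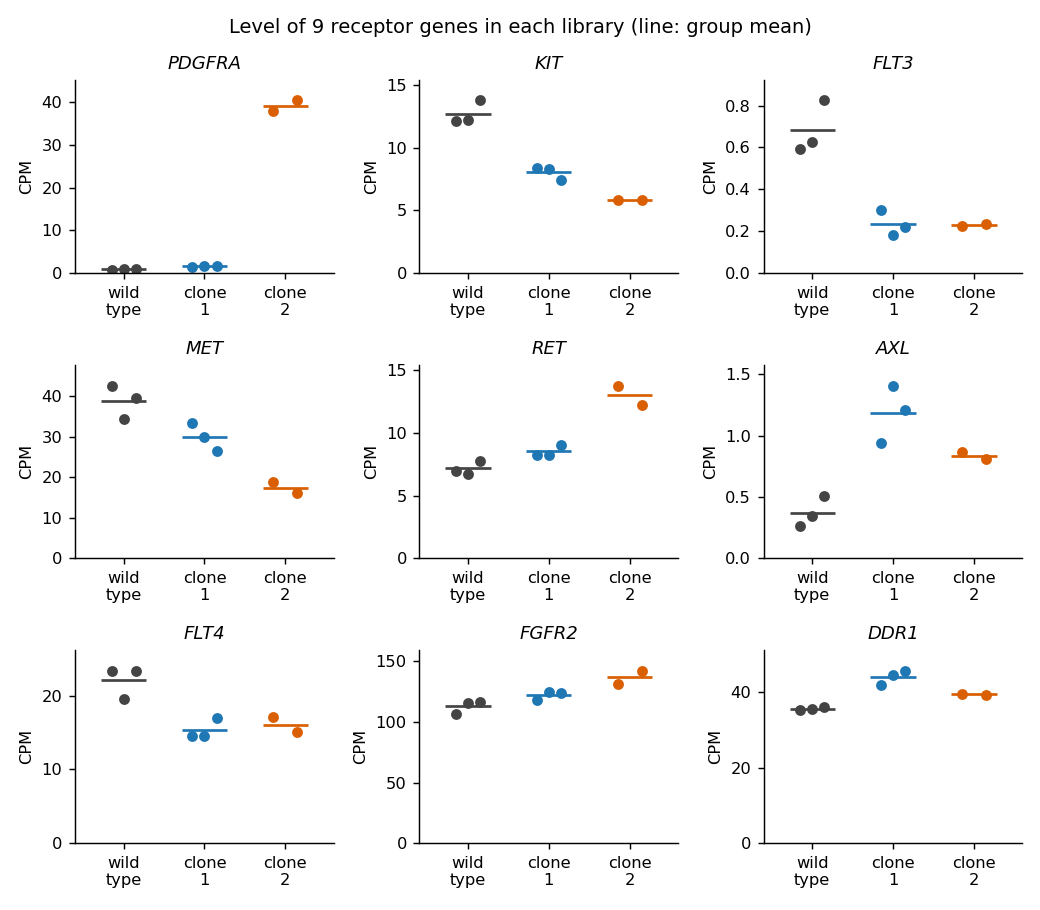
CPM of 9 receptor genes in each paired-end library, each panel with its own linear axis from 0; points are libraries and lines are group means. PDGFRA is at 37.9 and 40.4 in the clone 2 libraries and between 0.831 and 1.70 in the rest; KIT and MET step down from wild type to clone 1 to clone 2, and RET is highest in clone 2.

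MET, the receptor for hepatocyte growth factor, fell in each clone and further in clone 2. MET (chr7:116672390-116798386) stood at 42.6, 34.3 and 39.5 CPM across wild type, 33.5, 29.9 and 26.4 across clone 1, and 18.7 and 16.0 across clone 2. The highest clone 1 library was just below the lowest wild type library, while both clone 2 libraries were well below both groups. The log2 fold change was -0.38 in clone 1 (SE 0.101, adjusted p = 0.0270) and -1.16 in clone 2 (SE 0.119, adjusted p = 7.32e-05). The clone 1 call was lost after a GC correction (adjusted p = 0.0566), and when wild type replicate 1 or 3, or clone 1 replicate 2 or 3, was left out (up to 0.107). It was also lost with the 2 runs of sample numbers as a term (adjusted p = 0.136) and with numbers 1 to 5 alone (0.218). Clone 2 was below clone 1 by -0.78 (SE 0.119, adjusted p = 0.00375), a call that was lost only without clone 2 replicate 2 among the alternatives run (adjusted p = 0.0644). MST1R, the other member of the family and the receptor for macrophage-stimulating protein, stood at 0.400 to 0.522 CPM in wild type and 0.108 to 0.514 in the knockout libraries, and was not called.

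RET, the signalling receptor for the GDNF family of ligands, rose in clone 2. RET (chr10:43077027-43130351) stood at 6.96, 6.74 and 7.78 CPM across wild type, 8.25, 8.25 and 9.06 across clone 1, and 13.8 and 12.2 across clone 2. Both clone 2 libraries exceeded all others, and the clone 1 libraries lay above the wild type range by less. The log2 fold change was 0.86 in clone 2 (SE 0.106, adjusted p = 0.000131) and 0.25 in clone 1 (SE 0.0987, adjusted p = 0.104), and clone 2 exceeded clone 1 by 0.61 (SE 0.105, adjusted p = 0.00570). The last call was lost without clone 2 replicate 1 (adjusted p = 0.0862). LTK, of the ALK family, stood at 4.17 to 4.82 CPM in wild type and 4.84 to 6.84 in the knockout libraries, with log2 fold changes of 0.30 and 0.32 that did not pass the test.

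AXL, of the TAM family, rose in each clone. The receptors of this family bind GAS6 and protein S and are known for the uptake of dying cells. AXL (chr19:41219203-41261766) stood at 0.261, 0.343 and 0.509 CPM across wild type, 0.937, 1.41 and 1.21 across clone 1, and 0.867 and 0.808 across clone 2, so every knockout library lay above every wild type library. The log2 fold change was 1.69 in clone 1 (SE 0.285, adjusted p = 0.00146) and 1.16 in clone 2 (SE 0.324, adjusted p = 0.0344). Each call was lost with sample numbers 1 to 5 alone (adjusted p = 0.0533 in clone 1 and 0.0758 in clone 2). That in clone 2 was also lost with DESeq2 (adjusted p = 0.0610), with the runs of sample numbers as a term (0.0613), and without wild type replicate 1 or 2 or either clone 2 replicate (up to 0.167). MERTK (10.2 to 10.7 CPM in wild type, 10.4 to 11.04 in the knockouts) and TYRO3 (48.6 to 51.9 and 46.0 to 48.3) had far higher levels and were not called. After a GC correction TYRO3 was called lower in clone 1 (-0.17, adjusted p = 0.0203). Whether AXL differed in its change from MERTK and TYRO3 was not tested.

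FLT4, the receptor for VEGF-C and VEGF-D known from lymphatic endothelium, fell by a similar amount in each clone. FLT4 (chr5:180601506-180649624) stood at 23.4, 19.5 and 23.3 CPM across wild type, 14.5, 14.5 and 17.0 across clone 1, and 17.1 and 15.1 across clone 2. All knockout libraries were below all wild type libraries, and the clones overlapped. This was a log2 fold change of -0.53 in clone 1 (SE 0.0941, adjusted p = 0.00214) and -0.46 in clone 2 (SE 0.106, adjusted p = 0.0125); the latter was lost when wild type replicate 1 or clone 2 replicate 2 was left out (up to 0.104). FLT1, which binds VEGF-A, VEGF-B and placental growth factor, stood at 7.99 to 10.4 CPM in wild type. Each clone overlapped wild type, at 9.79 to 11.6 CPM in clone 1 and 9.46 and 8.88 in clone 2. Both clone 2 libraries lay below clone 1, and FLT1 was called in no contrast.

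The abundant FGF receptors changed little. FGFR1 stood at 251, 249 and 249.6 CPM across wild type, 271, 269.6 and 288 across clone 1, and 299.5 and 280.1 across clone 2. All knockout libraries were above wild type, but the log2 fold change was only 0.15 in clone 1 (adjusted p = 0.0706) and 0.21 in clone 2 (SE 0.0570, adjusted p = 0.0280). Leaving out any wild type or clone 2 library ended the clone 2 call (adjusted p up to 0.332). FGFR2 stood at 106, 115 and 116 CPM across wild type, 118, 124 and 123 across clone 1, and 131 and 142 across clone 2, each group above the one before. Its log2 fold change was 0.12 in clone 1 (adjusted p = 0.181) and 0.28 in clone 2 (SE 0.0619, adjusted p = 0.0106), the latter lost on leaving out wild type replicate 1 or clone 2 replicate 2 (up to 0.175). FGFR3 (30.1 to 34.8 CPM in wild type, 34.02 to 41.6 in the knockouts) and FGFR4 (25.3 to 30.2 and 26.3 to 31.8) overlapped wild type in each clone and were not called. For FGFR4 both clone 2 libraries lay above clone 1. Without a filter on low counts, without clone 1 replicate 1, or with a replicate block, FGFR3 was called higher in clone 1 (adjusted p = 0.0266, 0.0240 and 0.0451).

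Among the EGF receptor family, ERBB2 was called in clone 1. ERBB2, which has no known ligand of its own and pairs with the other members, stood at 6.81, 6.82 and 7.57 CPM across wild type, 8.58, 8.86 and 9.01 across clone 1, and 8.69 and 8.65 across clone 2. All knockout libraries lay above wild type, with a log2 fold change of 0.32 in clone 1 (SE 0.0917, adjusted p = 0.0311) and 0.29 in clone 2 (SE 0.102, adjusted p = 0.0858). The clone 1 call held in 8 of 17 alternatives. It was lost, among others, after a GC correction, with DESeq2, with sample numbers 1 to 5 alone, and when wild type replicate 1 or 2, or clone 1 replicate 2 or 3, was left out (up to 0.180). ERBB2 shares 571 exon bases with MIEN1 on the opposite strand, and the sources used here do not state how the counting used strand. ERBB3 (7.84 to 8.19 CPM in wild type, 7.01 to 8.99 in the knockouts) and ERBB4 (1.51 to 1.92 and 1.09 to 2.12), the neuregulin receptors, overlapped between groups.

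The remaining called receptors moved by small amounts. DDR1, a collagen receptor, stood at 35.1, 35.5 and 36.1 CPM across wild type, 41.7, 44.6 and 45.6 across clone 1, and 39.5 and 39.1 across clone 2. Each clone lay above wild type and clone 1 above clone 2. Its log2 fold change was 0.31 in clone 1 (SE 0.0554, adjusted p = 0.00228) and 0.15 in clone 2 (adjusted p = 0.169), and the clone 1 call was lost after a GC correction (adjusted p up to 0.0738). PTK7 stood at 75.4, 78.4 and 82.5 CPM across wild type, 85.9, 91.2 and 89.6 across clone 1, and 91.5 and 86.9 across clone 2, with all knockout libraries above wild type. Its log2 fold change was 0.18 in each clone (adjusted p = 0.0427 and 0.0759). The clone 1 call held in 3 of 17 alternatives, and the highest adjusted p (0.589) came after a GC correction, where the log2 fold change was 0.046. With sample numbers 1 to 5 alone PTK7 was called in clone 2 (0.21, adjusted p = 0.0398) and not in clone 1 (0.13, adjusted p = 0.201). The longest annotated transcripts of DDR1, PTK7 and ERBB2 are 61.6%, 58.3% and 57.5% GC.

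Receptors that were not called were not all faintly expressed. FGFR3, FGFR4, ERBB3, IGF1R, INSR, MERTK, TYRO3, ROR2, RYK and FLT1 had wild type means of at least 5 CPM. Their largest log2 fold change in either clone was 0.30, with SEs of 0.0491 to 0.126. The insulin receptor INSR stood at 59.7 to 61.7 CPM in wild type and 53.1 to 57.7 in the knockouts, without overlap, and its log2 fold changes of -0.10 and -0.13 did not pass the test; with sample numbers 1 to 5 alone it was called in clone 2 (-0.20, adjusted p = 0.0421). IGF1R, which binds insulin-like growth factors, overlapped between wild type (63.9 to 70.4 CPM) and clone 1 (57.9 to 71.65). Both clone 2 libraries, at 70.55 and 77.03 CPM, lay above wild type, and IGF1R was not called there (0.15, adjusted p = 0.337). RYK stood at 57.0 to 59.2 CPM in wild type and 53.3 to 54.4 in the knockouts. ROR2, a WNT5A receptor, stood at 7.85 to 8.43 CPM in wild type and 8.55 to 11.3 in the knockouts, with log2 fold changes of 0.10 and 0.30 (adjusted p = 0.531 and 0.116). It was called in clone 2 with sample numbers 1 to 5 alone (0.45, adjusted p = 0.0191) and without clone 2 replicate 2 (0.45, adjusted p = 0.0484). DDR2 (1.199 to 1.33 and 1.18 to 1.57 CPM) and ROR1 (0.143 to 0.315 and 0.0541 to 0.346) overlapped. The SE of ROR1 was 0.616 in clone 1, so a change of that size was not detectable at this depth.

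In the single-end pair all 12 receptors called in the mean of the clones had a ratio of the same sign. The share of all features with the same sign was not computed, so this count has no background beside it. There is 1 library per group, so these are values without a test, and the labels do not say whether the RNA came from the same cultures. The knockout to wild type log2 ratio was -0.85 for KIT, -1.07 for FLT3, -1.14 for MET, 1.27 for RET, -0.89 for FLT4 and 0.48 for AXL. It was 0.44 for FGFR2, 0.39 for DDR1, 0.25 for ERBB2, 0.16 for FGFR1 and 0.15 for PTK7. Some receptors that were not called had ratios of like size, such as ROR2 (0.57) and FGFR4 (-0.22), and others were near 0, such as FGFR3 (0.0053).

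Of 65 ligand genes listed, 34 were tested, and in the mean of the clones 9 rose and 5 fell (41.2%, beside 18% of all features). WNT5A, which binds ROR and RYK receptors, rose from 22.7 to 23.6 CPM in wild type to 30.2 to 33.9 in clone 1 and 50.5 and 54.6 in clone 2. Its log2 fold changes were 0.48 (SE 0.0633, adjusted p = 0.000221) and 1.19 (SE 0.0684, adjusted p = 9.08e-08), without overlap between the groups. IGF2, a ligand of IGF1R, rose from 0.309 to 0.364 CPM to 1.54 to 2.23 in the knockout libraries (2.32 and 2.56, adjusted p = 1.58e-05 and 8.34e-06). NRG1, the neuregulin that binds ERBB3 and ERBB4, fell from 1.24 to 1.43 CPM to 0.121 to 0.276 (-2.76 and -2.25, adjusted p = 3.74e-05 and 0.000401). FGF2 fell from 36.3 to 36.7 CPM to 22.2 to 27.7 (-0.62 and -0.50, adjusted p = 5.46e-05 and 0.000828).

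Ligands of the receptors that changed were picked out after their values were seen. PDGFA, which binds PDGFRA, rose in each clone, from 1.37 to 1.81 CPM in wild type to 2.54 to 3.05 in clone 1 and 4.18 and 3.55 in clone 2 (0.78 and 1.23, adjusted p = 0.00559 and 0.000336). PDGFC, another ligand of PDGFRA, was not called at 34.9 to 37.4 CPM in wild type and 33.0 to 37.1 in the knockouts. The low-count PDGF gene PDGFB was called higher in clone 1 (1.87, adjusted p = 0.0284), a call that held in 10 of 16 alternatives. Its estimate in clone 2 had the other sign and was not called (-2.86, adjusted p = 0.140). KITLG, the ligand of KIT, overlapped between groups at 35.3 to 41.7 and 28 to 44.3 CPM. HGF, the ligand of MET, and GDNF, a ligand of RET, had no read in any of the 8 libraries. The other RET ligands NRTN, ARTN and PSPN were not called in any contrast against wild type.

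VEGFC, a ligand of FLT4, fell in each clone, from 1.51 to 2.11 CPM in wild type to 0.393 to 0.776 in clone 1 and 0.470 and 0.786 in clone 2 (-1.37 and -1.43, adjusted p = 0.00471 and 0.00997; the clone 2 call was lost without clone 2 replicate 1). GAS6, the ligand of AXL, rose in clone 2 (0.46, adjusted p = 0.00926, lost without clone 2 replicate 1) and not in clone 1 (0.16, adjusted p = 0.256). TGFA, a ligand of the EGF receptor, rose in each clone (1.32 and 1.76, adjusted p = 0.00198 and 0.000317), while EGFR itself had 2 reads. NRG4, a ligand of ERBB4, fell (-1.06 and -0.80, adjusted p = 0.00368 and 0.0389); the clone 2 call was lost when wild type replicate 1 or 3 or either clone 2 replicate was left out.

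**Figure D5:**
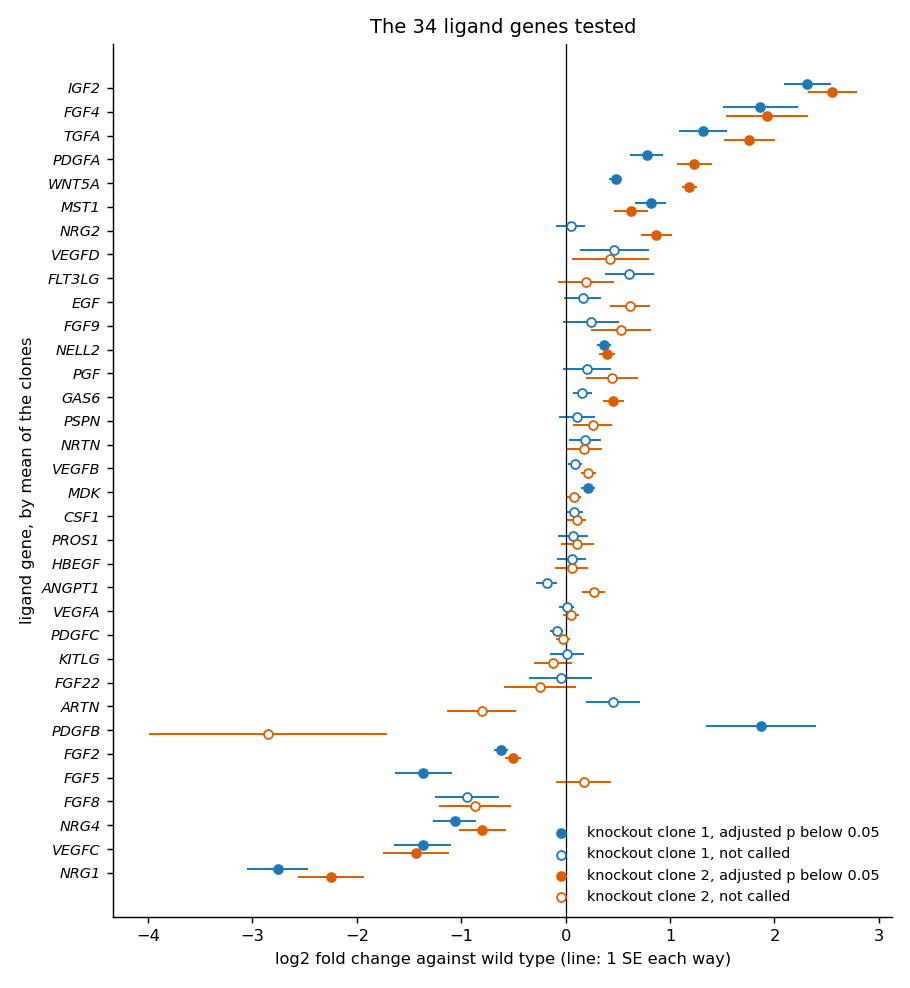
Log2 fold change against wild type of the 34 tested ligand genes in each clone, ordered by the mean of the clones, with lines of 1 SE each way and filled points for an adjusted p below 0.05 (edgeR). IGF2 is at the top (2.32 and 2.56) and NRG1 at the bottom (-2.76 and -2.25), and the low-count ligand PDGFB has the widest lines.

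Co-receptors, which present ligands or shape the response, were called in 10 of 17 tested (58.8%, beside 18% of all features; 22 listed): 7 rose and 3 fell in the mean of the clones. CD44, a hyaluronan receptor that works with MET and ERBB2, rose from 1.93 ± 0.170 CPM (SD, n = 3) to 8.71 ± 0.727 (n = 3) in clone 1 and 6.83 ± 0.0720 (n = 2) in clone 2 (adjusted p = 8.51e-08 and 7.40e-07). The glypican GPC3 rose from 266 ± 17.5 CPM to 346 ± 32.3 and 595.5 ± 25.7, and also differed between the clones (0.78, adjusted p = 4.94e-05). NRP1, a co-receptor for VEGF, fell (-0.49 and -0.37, adjusted p = 0.000103 and 0.00228), and so did GPC4 (-0.30 and -0.32, adjusted p = 0.00614 and 0.0105). Leaving out wild type replicate 3 or clone 2 replicate 1 ended the clone 2 call of GPC4.

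Adaptors and effectors, the machinery common to all receptors, were called in 13 of 51 tested in the mean of the clones (25.5%, beside 18% of all features; 54 listed), 8 higher and 5 lower. SHC2 rose from 9.46 ± 1.098 CPM to 17.9 ± 2.16 in clone 1 and 15.0 ± 1.13 in clone 2 (adjusted p = 9.79e-05 and 0.00278), and SHC1 from 33.7 ± 1.28 to 44.7 ± 1.71 and 43.6 ± 3.07 (adjusted p = 0.000625 and 0.00275). Without clone 2 replicate 2 the clone 2 call of SHC1 was lost. In the mean of the clones the Src-family kinase YES1 fell (-0.18, adjusted p = 0.0224), and a GC correction, or leaving out any 1 wild type replicate or clone 2 replicate 1, ended that call. Clone 1 gave 8 higher and 2 lower (19.6%, beside 16% of all features) and clone 2 gave 7 higher and 3 lower (19.6%, beside 10.8%).

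Negative regulators were called in 7 of 29 tested in the mean of the clones (24.1%, beside 18% of all features; 33 listed), 5 higher and 2 lower. SOCS2 rose (0.47 and 0.55, adjusted p = 3.18e-05 and 1.68e-05). SPRY4, an inhibitor of RAS-ERK signalling, went from 0.0176 CPM in wild type, at most 1 read a library, to 0.186 in clone 1 and 0.343 in clone 2 (adjusted p = 0.00907 and 0.00162), the former lost with sample numbers 1 to 5 alone (0.0944). ERRFI1, which inhibits the EGF receptor family, fell (-0.74 and -0.67, adjusted p = 0.000898 and 0.00484), the latter lost without clone 2 replicate 2. SPRY1 fell in clone 1 (-1.01, adjusted p = 0.00202) and was not called in clone 2 (-0.28, adjusted p = 0.407).

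Genes known to respond to ERK activity were called in 10 of 20 in the mean of the clones (50%, beside 18% of all features). Of these 8 were higher and 2 lower, and the median log2 fold change was 0.30. Clone 1 gave 5 higher and 2 lower (35%, beside 16% of all features), and clone 2 gave 7 higher and 0 lower (35%, beside 10.8%). The median was 0.31 in each clone. The summed level was lower than wild type in clone 1 and higher in clone 2. It was 175.1 to 181 CPM in wild type, 165 to 173.5 in clone 1 and 198.5 to 200.8 in clone 2. CCND1, which encodes cyclin D1, stood at 2.68 ± 0.448 CPM in wild type, 4.48 ± 0.186 in clone 1 and 12.6 ± 1.04 in clone 2 (0.73 and 2.22, adjusted p = 0.00250 and 1.78e-07), and was higher in clone 2 than in clone 1 (1.49, adjusted p = 1.05e-05). The transcription factor gene ETV4 rose in each clone (1.17 and 1.56, adjusted p = 0.000746 and 0.000117). ETV1 (-1.14, adjusted p = 0.00313) and EPHA4 (-0.50, adjusted p = 0.000535) fell in clone 1 and were not called in clone 2 (-0.03 and -0.14). Nothing of phosphorylation or protein was measured.

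Markers of other cell types were followed because several receptors are known from particular tissues. Their counts in the mean of the clones stand beside 9.87% of all features called higher and 8.09% called lower. Of 15 haematopoietic markers 4 were tested, and GATA2 rose (0.32 and 0.25, adjusted p = 0.00215 and 0.0244, the latter lost after a GC correction and when wild type replicate 1 or 3 or either clone 2 replicate was left out). GATA1, MPO, CD3E and HBG1 had no read, and PTPRC, the pan-leukocyte gene, was at 0.00951 CPM in wild type. Their summed level was 105 to 114 CPM in wild type, 126 to 133 in clone 1 and 121 to 124 in clone 2. Of 11 endothelial markers 3 were tested and ESAM rose in clone 2 (0.62, adjusted p = 0.0204, lost when clone 2 replicate 1 or wild type replicate 1 or 2 was left out), with CDH5, ERG and SOX17 at 0 in all libraries and a summed level of 25.1 to 28.5 CPM in wild type and 23.2 to 32.2 in the knockouts.

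Mesenchymal markers, which bear on PDGFRA, were mixed: of 12 listed 7 were tested, 3 rose and 2 fell in the mean of the clones (71.4%, beside 18% of all features). SPARC (1.70 and 2.38, adjusted p = 3.82e-09 and 1.52e-10) and COL1A1 (0.56 and 0.97, adjusted p = 0.000556 and 8.34e-06) rose, and VIM and FN1 fell in clone 1 (-0.23 and -0.44, adjusted p = 0.0245 and 0.00391). The VIM call was lost without any 1 of the wild type libraries, with the runs of sample numbers as a term, and with numbers 1 to 5 alone. The fibroblast genes COL1A2, DCN and LUM had no read, and the summed level was 619 to 663 CPM in wild type, 605 to 653 in clone 1 and 687 to 693 in clone 2. Epithelial markers rose in 4 of 8 tested of 12 listed (50%, beside 9.87% of all features), led by KRT8 in clone 2 (1.81, adjusted p = 2.74e-07) and KRT18 (0.43 and 0.57, adjusted p = 0.00195 and 0.000502), with GRHL2 at 0 in all libraries. Their sum was 63.0 to 68.6 CPM in wild type and 83.0 to 103 in the knockouts. Neural markers rose in 3 of 7 tested of 12 listed (42.9%, beside the same 9.87%), among them NES (0.24 and 0.70, adjusted p = 0.0257 and 2.94e-05) and TUBB3 (0.32 and 0.44, adjusted p = 0.00420 and 0.00113). A GC correction ended the clone 1 calls of NES and TUBB3, and leaving out clone 1 replicate 3 or wild type replicate 1 or 2 also ended that of NES. The clone 1 call of NES was lost as well with the runs of sample numbers as a term and with numbers 1 to 5 alone. The neural genes ELAVL4, STMN2 and SOX10 were at 0, and the sum was 793 to 848.5 CPM in wild type and 809 to 1026 in the knockouts. The part of such shifts in the receptor values was not tested.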

How the data were processed

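The authors deposited whole-number read counts per gene and repeat subfamily, with no normalization: 58051 gene rows and 1187 repeat rows, 1 table for the 8 paired-end and 1 for the 2 single-end libraries. The submitters' processing notes list STAR 2.5.2a and the build GRCh38 (hg38), and TEToolkit is named in the table names. The sources used here do not give the counter's version, its strand setting, how it treated reads with several alignments, or the annotation release. Libraries came from a stranded mRNA kit with ERCC spike-in RNA, per the labels' protocols; spike-ins were not used.

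Symbols came from a gene name table (56948 matched), and coordinates and exon lengths from GENCODE 29 (57447 matched). The GC content of a gene was that of its longest GENCODE 29 transcript (57388 genes with a value). Counts were filtered with filterByExpr, scaled by TMM and tested with edgeR 4.0.16 (robust quasi-likelihood F test, 1 mean per group, R 4.3.3) in 4 contrasts: each clone against wild type, their mean against wild type, and the clones against each other. Benjamini-Hochberg adjustment ran over the 20747 features, with calls below 0.05. SEs were derived from the fold change and its F statistic and are approximate. CPM uses TMM-adjusted library sizes. The single-end pair has no test; its log2 ratios add a prior count of 2. Library totals of 33192095 or more set the precision.

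Within groups no library was a copy of another (chi-square per degree of freedom 4.54 to 22.1). In the 18 alternatives, normalization, filter, tool (DESeq2 1.42.0), replicate block, GC correction, run and left-out libraries were varied. The column names carry sample numbers: 1 to 5 are wild type replicates 1 to 3 and the first replicate of each clone, and 11 to 13 are the other knockout libraries. The members and gene lists were chosen with earlier results of these data known. All 37 receptors, RBM4 and, per list, up to 2 called genes per direction with the smallest p in the mean of the clones are named; others are said to be chosen after their values were seen. A gene named by this rule is not reported here. The code was tested on simulated data.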

Additional observations from a re-analysis of the deposited data

Results flagged for a closer look

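Receptor genes differed between the 2 knockout clones under the same comparison with wild type, by edgeR's test of clone 2 against clone 1 with adjustment over all features. PDGFRA was higher in clone 2 by a log2 fold change of 4.61, in both clone 2 libraries against all 3 clone 1 libraries. RET was higher in clone 2 by 0.61. MET differed by -0.78 and KIT by -0.47, being lower in both clone 2 libraries than in every clone 1 library. The share of all features without overlap between the clones was not computed. FGFR2, FGFR4, AXL, RYK, DDR1 and FLT1 also did not overlap between the clones and were not called, so a lack of overlap was not confined to the called receptors. The KIT call held in 9 of 17 alternatives. The RET call was lost without clone 2 replicate 1 and the MET call without clone 2 replicate 2.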

How the results depend on the processing

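Clone 2 rests on 2 libraries and each fit that leaves 1 of them out assumes that the other varies like the remaining groups. The count of receptors called in clone 1 went from 9 to 3 with sample numbers 1 to 5 alone, an alternative with 1 library per clone. Leaving out 1 library gave 6 to 10 calls in clone 1, 5 to 9 in clone 2 (5 without wild type replicate 1 or clone 2 replicate 2), 7 to 12 in the mean of the clones (7 without wild type replicate 1 or 2) and 2 to 4 between the clones (2 without either clone 2 replicate). Over all features the same settings gave 1605 to 3229, 1033 to 2747, 1847 to 4251 and 224 to 418 calls. Treating all knockout libraries as 1 group left 8 receptors in the mean and ended the calls of PDGFRA (adjusted p = 0.187), MET (0.132), RET (0.0698) and FGFR2 (0.0547). No receptor value that was called changed sign in any alternative run. The deviations of the 7 same-numbered pairs from their group means correlated between -0.233 and 0.253, with 2 over 0.1. Those 2 were clone 1 with clone 2, at 0.253 for replicate 1 and 0.197 for replicate 2. With 2 libraries, the deviations of clone 2 mirror each other. These values therefore cannot decide whether the replicate numbers pair the samples. The fit with the replicate block called 10, 9, 13 and 3 receptors in the 4 contrasts (7, 9, 11 and 4 with a GC correction as well). DESeq2's Wald test called 7, 8, 12 and 4. Genes with few reads, such as FLT3, AXL, MST1R and ROR1, are limited by depth.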
